A study of Homo sapiens with 9 samples.

Results

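Intragenic chromatin regions gained with both CHD4 hairpins were examined in SK-N-MC, an established line of Ewing sarcoma cells. They are places inside the body of a protein-coding gene that were listed as accessible with shCHD4#1 and with shCHD4#2 and not with shScramble. There were 5112 of them among 53241 merged intragenic regions and 130417 merged regions in all, which is 9.6% of the intragenic regions. Members were chosen by presence in the 3 deposited lists alone. Regions of the lists on chromosomes 1 to 22 and X were merged where they shared at least 1 bp, after setting aside regions with a negative second score of the authors or a width above 20 kb. A merged region was kept when it overlapped a protein-coding gene of GRCh38 and stayed more than 1 kb away from every end of such a gene. All counts below therefore describe the chosen regions, and none was tested.

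The assay was ATAC-seq, where Tn5, a transposase, inserts adapters into open DNA. The groups were cells with shCHD4#1 and cells with shCHD4#2, which are independent hairpins against CHD4, and cells with the control hairpin shScramble. All 3 groups carried a doxycycline-inducible hairpin, all received 100 ng/ml doxycycline for 48 h, and the labels give the genotype of each as wild type. Each group had 3 biological replicates, and a small number of Drosophila S2 cells was added to every sample as a spike-in. Whether each line was a clone or a pool was not given in the sources used here. A single list of regions per group was analysed, filed under replicate 1 and treated as the combined list of its group, which is an inference from the name of the combining program in its deposited title. No spread between replicates was therefore at hand, depth was unknown, and differences between groups went untested. A region absent from the shScramble list may still have been accessible there below the limit for listing.

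CHD4 is the ATPase motor of NuRD, a complex that moves nucleosomes and removes acetyl groups from histones. NuRD is best known for closing chromatin at enhancers and promoters. Accessible DNA inside a gene body can be an enhancer, the promoter of a shorter transcript of the same gene, the promoter of another gene such as an antisense RNA, or a binding site of an insulator protein. In Ewing sarcoma the fusion protein EWSR1::FLI1 opens chromatin at GGAA repeats, many of which lie in introns.

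Annotated start sites of transcripts that begin inside a gene were looked up in the gained regions. The gained regions held 192 annotated start sites of 164 protein-coding genes, 3.84% of the 4995 such starts that lie more than 1 kb from every gene end. They also held 89 start sites of 85 long non-coding RNA genes. The sequences printed here are the RefSeq start windows (GRCh38.p14, 250 bases before the start to 50 after it) of the 6 protein-coding genes whose gained regions ranked best among windows that lay wholly within a region of each hairpin. They show the letters at 6 genes and do not stand for gained regions at large, of which 3.29% held a protein-coding start. Capitals mark matches on either strand to 6 short motifs that were searched. These were the GC box with the letters GGGCGG, the box named CCAAT after its letters, the TATA box with the letters TATAAA and the E-box with the letters CACGTG. The GGAA pair, GGAAGGAA, is a pair of units of the GGAA repeats that EWSR1::FLI1 binds, and the AP-1 motif was searched as TGANTCA. Matches may overlap. The start is the base at position 251.
SPECC1: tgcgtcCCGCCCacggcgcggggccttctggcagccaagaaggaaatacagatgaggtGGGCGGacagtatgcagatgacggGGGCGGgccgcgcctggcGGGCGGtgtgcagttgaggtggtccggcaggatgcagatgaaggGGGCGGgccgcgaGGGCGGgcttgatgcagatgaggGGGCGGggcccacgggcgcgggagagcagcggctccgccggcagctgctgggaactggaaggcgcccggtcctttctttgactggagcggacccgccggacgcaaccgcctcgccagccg
TIPIN: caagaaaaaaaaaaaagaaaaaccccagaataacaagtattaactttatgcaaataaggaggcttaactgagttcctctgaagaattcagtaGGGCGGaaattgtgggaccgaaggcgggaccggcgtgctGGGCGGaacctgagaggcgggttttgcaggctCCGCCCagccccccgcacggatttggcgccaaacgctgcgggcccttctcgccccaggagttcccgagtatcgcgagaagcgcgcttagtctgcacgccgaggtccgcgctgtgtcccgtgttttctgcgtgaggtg
HMGB3: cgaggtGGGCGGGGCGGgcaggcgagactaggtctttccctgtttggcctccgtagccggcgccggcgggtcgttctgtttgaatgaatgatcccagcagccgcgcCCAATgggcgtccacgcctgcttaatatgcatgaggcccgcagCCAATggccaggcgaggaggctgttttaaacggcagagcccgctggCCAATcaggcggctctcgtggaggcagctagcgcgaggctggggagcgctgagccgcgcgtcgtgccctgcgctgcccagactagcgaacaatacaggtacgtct
SEMA4B: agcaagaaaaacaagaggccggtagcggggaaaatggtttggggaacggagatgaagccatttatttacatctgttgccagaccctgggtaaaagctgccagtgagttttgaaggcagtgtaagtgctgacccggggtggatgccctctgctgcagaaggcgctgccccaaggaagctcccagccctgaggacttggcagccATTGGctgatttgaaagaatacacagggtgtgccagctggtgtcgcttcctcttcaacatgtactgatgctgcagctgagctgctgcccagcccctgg
IDI1: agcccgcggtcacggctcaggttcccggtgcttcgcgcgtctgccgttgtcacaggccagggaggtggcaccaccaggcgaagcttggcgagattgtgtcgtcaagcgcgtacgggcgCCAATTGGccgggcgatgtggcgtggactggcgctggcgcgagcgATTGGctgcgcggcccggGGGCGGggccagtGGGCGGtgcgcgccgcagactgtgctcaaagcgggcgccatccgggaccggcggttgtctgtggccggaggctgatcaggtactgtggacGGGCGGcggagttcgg
SERPINE2: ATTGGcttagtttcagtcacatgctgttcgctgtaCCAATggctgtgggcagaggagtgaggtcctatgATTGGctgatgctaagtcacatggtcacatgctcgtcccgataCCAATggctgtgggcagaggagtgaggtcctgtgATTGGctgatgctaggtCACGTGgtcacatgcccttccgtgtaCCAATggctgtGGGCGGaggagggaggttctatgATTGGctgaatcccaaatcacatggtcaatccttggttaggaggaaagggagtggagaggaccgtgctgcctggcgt

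SPECC1, a coiled-coil protein of the cytospin family, starts here at 20156072 on the plus strand of chromosome 17, 147 kb into the gene, in a window with 7 GC boxes (chr17:20155822-20156121). The gained region around it was number 5681 in the shCHD4#1 list and number 3550 in the shCHD4#2 list, and the nearest shScramble region lay 30750 bp away. TIPIN, a partner of Timeless that protects replication forks, has an internal start 30.0 kb into the gene (chr15:66356636-66356935, minus strand) with 3 GC boxes. HMGB3, a chromatin protein of the high mobility group, has one 2.83 kb into the gene (chrX:150983085-150983384, plus strand) with 2 overlapping GC boxes and 3 CCAAT boxes, but a shScramble region lay only 10 bp from its gained region. The window of SEMA4B, a transmembrane semaphorin, is 7.001 kb into the gene (chr15:90191671-90191970, plus strand) and holds 1 CCAAT box as its only match.

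IDI1, the isopentenyl diphosphate isomerase of cholesterol synthesis, has a start 7.82 kb into the gene (chr10:1048837-1049136, minus strand) with 3 GC boxes and 3 CCAAT boxes, 2 of which overlap. SERPINE2, which encodes the protease inhibitor nexin-1, has a start 7.81 kb into the gene (chr2:224031429-224031728, minus strand) in a window with 7 CCAAT boxes, 1 E-box and 1 GC box. None of the 6 windows had a TATA box, a GGAA pair or an AP-1 motif. Over all 22132 protein-coding start windows, 56.3% held a GC box, 34.6% a CCAAT box, 9.46% a TATA box, 8.34% an E-box, 3.68% a GGAA pair and 6.15% an AP-1 motif. Such matches describe letters in these windows and say nothing of factor binding.

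Other genes had gained internal starts as well. TCF7, a transcription factor of WNT signalling, had its start at 134123618 on chromosome 5 in a gained region 6170 bp from the nearest shScramble region. RUNX3, a transcription factor of blood and neurons, had one 34.9 kb into the gene and 916 bp from a shScramble region, and NFIA, a factor of glial development, one 5.33 kb into the gene and 50 bp from a shScramble region. PRDM2, a zinc finger methyltransferase, had one 49.2 kb into the gene. In PLCH2 an internal start lay 51.5 kb into the gene, in CAMTA1 919 kb into the gene, and in the adhesion gene TENM3 1001 kb into the gene. The gained region at the TENM3 start was 295860 bp from any shScramble region, whereas those at PFKFB3, a regulator of glycolysis, and at HMGB3 lay 40 and 10 bp away. Gained starts thus range from isolated ones to ones at the edge of a region that shScramble also listed.

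As a group, the windows of the 192 gained protein-coding starts were rich in G and C. Their median G and C content was 65.2%, against 60.7% for 1129 internal starts listed in all 3 groups and 51.7% for 2559 internal starts in no list. The ratio of observed to expected CpG was 0.606, against 0.659 and 0.328. A GC box was present in 58.3% of gained windows (95% Wilson interval 51.3 to 65.1), in 52.0% (49.1 to 54.9) of those in all lists and in 30.4% (28.7 to 32.2) of those in none. A TATA box was present in 6 of the 192 gained windows, which is 3.13% (1.44 to 6.65), against 8.15% (6.69 to 9.89) and 15.2% (13.8 to 16.6). Gained protein-coding starts were thus closer to CpG-rich promoters in these letters than unlisted starts were, as were those in all lists and those with shCHD4#2 only, whose CpG ratio was 0.729. The 89 gained starts of long non-coding RNAs were not as CpG-rich, with a ratio of 0.332 and a GC box in 39.3% (29.8 to 49.7). Several windows can belong to 1 gene, and the intervals here and below cover counting error only and take neighbours as independent.

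Counted per region, 3.29% (2.83 to 3.81) of gained intragenic regions held a protein-coding start. The share was 5.98% (5.62 to 6.37) in intragenic regions of all 3 lists and 0.711% (0.530 to 0.953) in those lost with both hairpins, meaning listed with shScramble only. It was 0.911% in regions listed with shCHD4#1 only and 2.30% in those with shCHD4#2 only. Regions of all 3 lists were wider, with a median of 2437 bp against 1590 bp for gained and 1380 bp for lost regions. The share in gained regions thus lay between those of lost regions and of regions in all lists, and the part of width in this was not tested.

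The gained regions also overlapped 23 microRNA hairpins of the 1558 in the RefSeq table, in 23 regions. That is 0.450% of gained regions (0.300 to 0.674), against 0.379% (0.294 to 0.490) of regions in all lists and 0.146% (0.0766 to 0.276) of lost regions. The 36 mature microRNAs that overlapped gained regions have 36 different seeds, so no seed family recurred. Those of miR-1306 and miR-548au are among the 36 but have no hairpin among the 23. Mature sequences are given for those in DGCR8, PDE2A, ETS1 and FKBP5, which are described next, with the seed (bases 2 to 8) in capitals.
hsa-miR-1306-5p: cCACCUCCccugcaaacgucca
hsa-miR-1306-3p: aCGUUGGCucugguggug
hsa-miR-3618: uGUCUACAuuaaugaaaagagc
hsa-miR-139-5p: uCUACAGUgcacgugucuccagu
hsa-miR-139-3p: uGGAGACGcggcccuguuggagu
hsa-miR-6090: gGGGAGCGaggggcggggc
hsa-miR-5690: uCAGCUACuaccucuauuagg

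Both arms of miR-1306 and miR-3618 lie in DGCR8, which encodes the partner of Drosha in microRNA processing, in a gained region of chromosome 22 (20085371 to 20087580). Its percent rank was 37.7 with shCHD4#1 and 58.8 with shCHD4#2, where 0 is the best and 100 the last place of a list. miR-139 lies in PDE2A, a cyclic nucleotide phosphodiesterase gene, in a gained region (chromosome 11, 72612281 to 72618680) at percent rank 80.7 with shCHD4#1 and 36.2 with shCHD4#2. miR-6090 lies in ETS1, the founding member of the family of factors to which FLI1 belongs, 105480 bp from the nearest shScramble region. The best ranked of the 23 was the region with miR-5690 in FKBP5, a chaperone of the glucocorticoid receptor, at 17.1 with shCHD4#1 and 19.7 with shCHD4#2. Region lists do not show whether any of these microRNAs was transcribed.

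Gained intragenic regions mostly held upper to middle places in the shCHD4#1 list and middle to low places in the shCHD4#2 list. The authors sorted both lists by their own p-value. The median percent rank was 41.1 with shCHD4#1 and 62.2 with shCHD4#2, against 24.6 and 36.9 for intragenic regions of all 3 lists. In the shCHD4#1 list the best 20% of places held 18.1% of gained regions and the next 20% held 30.2%, while in the shCHD4#2 list the best 20% held 5.93% and the 4th and 5th bands held 27.5% and 25.5%. The better rank was the shCHD4#1 rank in 74.1% of gained regions. In both lists at once, 104 gained regions reached an authors' p of 0.05 or less, which is 2.03% (1.68 to 2.46), against 14.1% (13.6 to 14.7) of regions in all lists. An authors' q of at most 0.05 in both was reached by 1, the region in VAV1. Near the bottom of the lists, 231 gained regions (4.52%) shared the most frequent p of the shCHD4#1 list, 0.949, and 105 (2.05%) that of the shCHD4#2 list, 0.954. Of all regions in the shCHD4#1 and shCHD4#2 lists, 6.61% and 6.18% had that p. These p-values are among the weakest of each list, and the order of regions that share one carries no information.

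**Figure D1:**
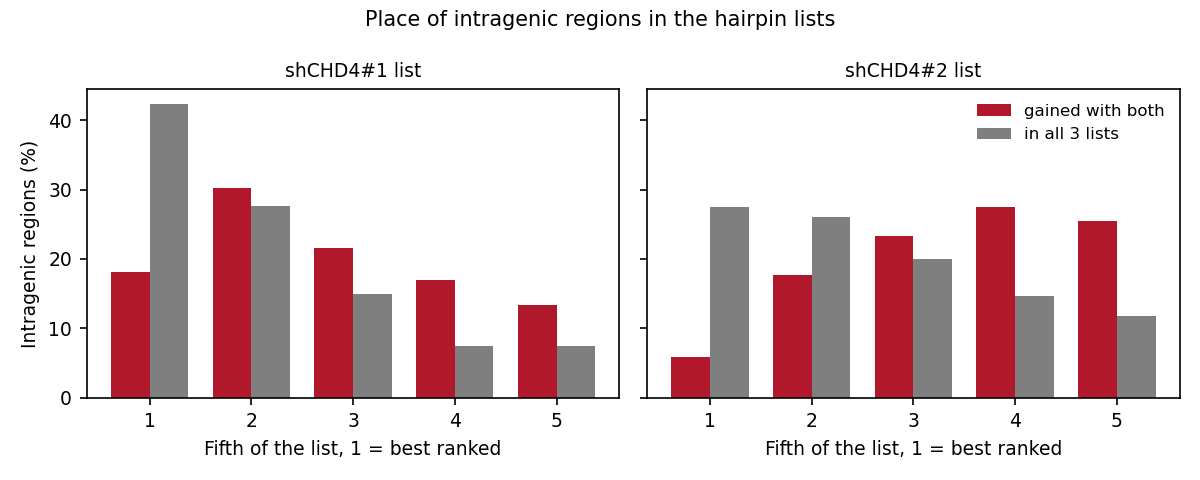
Share of intragenic regions (%, vertical axis) in 5 equal bands of the shCHD4#1 list (left) and of the shCHD4#2 list (right), 1 being the best ranked, for regions gained with both hairpins and regions in all 3 lists. Regions in all lists crowd at the best ranks (42.4% and 27.5%), whereas gained regions peak at the second band with shCHD4#1 (30.2%) and at the fourth with shCHD4#2 (27.5%).

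Within a gained region the hairpin regions mostly coincided. In 4178 gained regions (81.7%) each hairpin contributed exactly 1 region, and in 53.7% of these the narrower one lay wholly inside the wider. The median width was 1260 bp with shCHD4#1 and 940 bp with shCHD4#2, and the shCHD4#1 region was the wider in 72.6%. In 400 the regions shared less than 50% of the narrower one, and the smallest overlap was 10 bp. Merged widths ran from 240 to 15598 bp, and the gained regions together covered 9.41 Mb. The lists differ in the same sense over the whole genome: the median region was 1390 bp wide with shCHD4#1, 1040 bp with shCHD4#2 and 1440 bp with shScramble, and the lists kept 122456, 82824 and 85359 regions. The part of list length and width in the number of gained regions was not tested.

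Gained regions differed in how far they stood from control accessibility. The median distance to the nearest shScramble region was 5960 bp. A shScramble region lay within 1 kb of 22.2% (21.1 to 23.4), including 298 within 100 bp and 41 that touched one. At the other extreme 344 gained regions (6.73%, 6.07 to 7.45) had no shScramble region within 50 kb. The farthest lay in TENM3, 553860 bp from a shScramble region (chromosome 4, 182189901 to 182191130). Next came regions in UNC13C, a synaptic vesicle priming gene (430410 bp), CSMD1, a complement-regulating membrane protein gene (366730 bp), PPARGC1A, the coactivator of mitochondrial biogenesis (344820 bp), and DACH2, a developmental corepressor gene (326300 bp). Of these 5, the DACH2 region stood at 20.8% of the shCHD4#1 list and 44.3% of the shCHD4#2 list, and the PPARGC1A region at 5.70% and 51.3%. Just outside the definition, 92 intragenic regions of all 3 lists shared at most 100 bp with a shScramble region.

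The definition also has an edge at gene ends. The gained region nearest to a gene end lay 1001 bp from it, and 39 gained regions lay up to 1100 bp away. Just outside, 48 of the 2049 gained regions that overlapped a gene body within 1 kb of a gene end lay more than 900 bp from it, up to 999 bp. Of all 13115 merged regions gained with both hairpins, 39.0% (38.2 to 39.8) were intragenic, 42.2% (41.3 to 43.0) lay in no protein-coding gene and 18.9% (18.2 to 19.5) lay at a gene end. The intragenic share was 35.5% (35.1 to 36.0) among regions of all lists and 44.9% (44.1 to 45.8) among lost regions. With windows of 5 kb in place of 1 kb, 31.9% of gained regions were intragenic. Along the gene, gained regions lay at a median 51.3% of the way from the start, where the strand was known, against 50.2% for regions of all lists and 51.2% for lost regions. Within 10 kb downstream of the gene's start lay 16.5% (15.4 to 17.7) of gained regions, against 13.5% (12.9 to 14.1) of regions in all lists and 13.5% (12.6 to 14.5) of lost regions.

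Gained regions took a larger share of the intragenic regions of short genes than of long genes. In genes of 3.125 to 6.49 kb, 15.9% (11.2 to 22.03) of the intragenic regions were gained. The share was 13.2% (11.5 to 15.1) in genes of 10.9 to 16.4 kb, 11.7% (10.6 to 12.9) in genes of 24.2 to 35.3 kb, 9.58% (8.89 to 10.3) in genes of 52.4 to 83.6 kb and 8.66% (8.32 to 9.01) in genes of 152 to 2474 kb. The lost share did not run that way: it was 10.3% (9.09 to 11.7) in genes of 16.4 to 24.2 kb and 12.2% (11.8 to 12.6) in the longest class. Density did not follow the share in the shortest genes. It was 2.96 gained regions per Mb of gene body in genes of 3.125 to 6.49 kb and 6.65 in genes of 10.9 to 16.4 kb. From there it fell with the share, to 4.72 in genes of 52.4 to 83.6 kb and 3.22 in the longest class. Density was taken over the whole gene body, although the definition leaves out 1 kb at each gene end, and the part of this was not tested. In the longest class 54.8% of genes had at least 1 gained region.

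**Figure D2:**
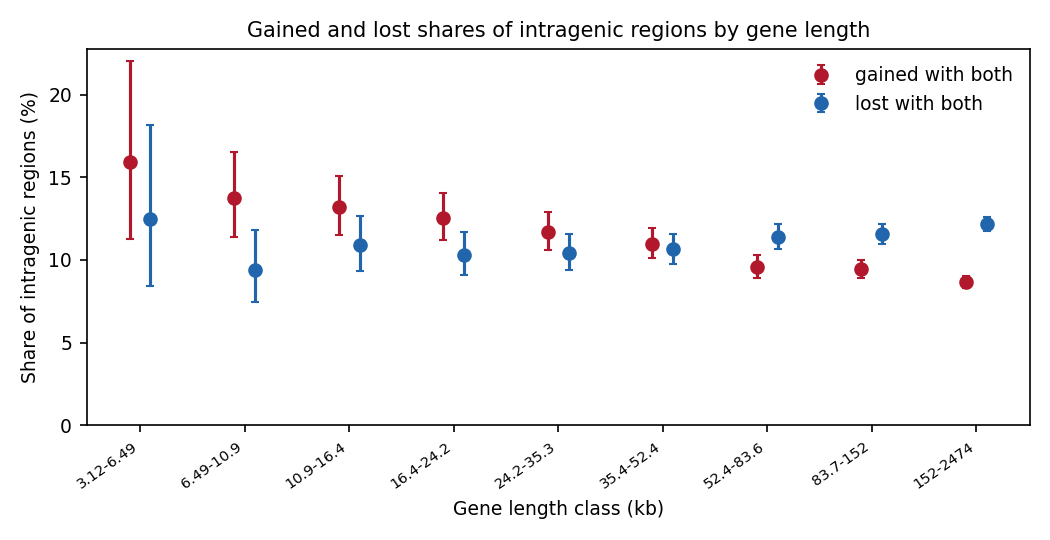
Share of merged intragenic regions (%, vertical axis) that were gained with both hairpins or lost, by length class of the protein-coding gene (kb, horizontal axis), with 95% Wilson intervals. The gained share is 15.9% in genes of 3.125 to 6.49 kb and 8.66% in genes of 152 to 2474 kb, and the lost share is 12.5% and 12.2% in the same classes.

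Chromosomes also differed. Gained regions made up 13.9% (12.5 to 15.5) of intragenic regions on chromosome 19, 12.9% (11.5 to 14.5) on chromosome 16 and 12.6% (10.98 to 14.4) on chromosome 22, all gene-rich. They made up 7.52% (6.55 to 8.62) on chromosome 5, 7.66% (6.30 to 9.29) on chromosome 13 and 7.86% (7.01 to 8.81) on chromosome 7. Per Mb of gene body there were 9.56 on chromosome 22, 8.88 on chromosome 19 and 1.65 on the X chromosome. The lost share was 8.11% on chromosome 19, 8.73% on chromosome 16 and 9.23% on chromosome 22, against 13.8% on the X chromosome.

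Of 19974 protein-coding genes, 3339 (16.7%) had at least 1 gained intragenic region. Of these, 2250 had exactly 1, 668 had exactly 2, 183 had at least 4 and 49 had at least 6. Such genes were long, with a median length of 88.3 kb against 18.7 kb for the other genes. Of the 3339, 1484 also held an intragenic region lost with both hairpins, a count that was not set beside genes of like length. Among genes with a known start, the start itself was listed with both hairpins and not with shScramble in 301 of 2642 genes that had a gained intragenic region (11.4%) and in 833 of 13170 that had none (6.33%). These shares were not set beside genes of like length either. With shScramble the start was listed in 55.45% and 59.44% of the same genes. More regions than with shScramble were listed in 44.7% of all genes with shCHD4#1 and in 27.2% with shCHD4#2. CHD4 itself (chromosome 12, 6570082 to 6607379) had 1 gained region, 2810 bp wide at 6571321 to 6574130, and 6 regions with shCHD4#1, 5 with shCHD4#2 and 3 with shScramble in the gene. Region lists hold no RNA, so the depth of the knockdown was not analysed here.

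The gene with the most gained intragenic regions was RBFOX3, a splicing factor of mature neurons better known as NeuN (chromosome 17, 79089345 to 79665571), with 14. Where the hairpin regions had to share at least 50% of the shorter, none of the 20 leading genes, RBFOX3 included, held more than 9. The gene body of RBFOX3 held 58 regions with shCHD4#1, 38 with shCHD4#2 and 22 with shScramble. Its gained regions had percent ranks of 23.9 to 83.3 with shCHD4#1 and 44.4 to 84.5 with shCHD4#2, so none was among the best of either list. A cluster of 8 of them lay within 100 kb (79125521 to 79217840), where shCHD4#1, shCHD4#2 and shScramble listed 23, 14 and 7 regions. A gained region 39.4 kb from the start of the gene (79625751 to 79626690) lay 10 bp from a shScramble region, while the one at 79293461 to 79295940 lay 72260 bp from any. CAMTA1, a calmodulin-binding transcription activator (chromosome 1, 6785454 to 7769706), had 11, among 101, 70 and 62 regions with shCHD4#1, shCHD4#2 and shScramble. KCNQ1, a voltage-gated potassium channel of heart and epithelia (chromosome 11, 2445008 to 2849105), had 10, among 43, 25 and 14. A gained region of it (2700021 to 2700380) stood at 17.1% of the shCHD4#1 list and 14.6% of the shCHD4#2 list, 2780 bp from a shScramble region. Another (2582411 to 2583420) stood at 5.69% and 18.7%, and was 45230 bp from any shScramble region.

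Several chromatin and transcription genes followed. HDAC4, a class II histone deacetylase, had 7 gained regions among 38 with shCHD4#1, 23 with shCHD4#2 and 20 with shScramble, and its best-placed one stood at 12.3% with shCHD4#1 and 13.9% with shCHD4#2. GSE1, a coiled-coil protein found with histone deacetylase complexes, had 8 among 101, 72 and 67. ZFHX3, a large homeobox zinc finger factor, had 9 among 61, 38 and 30, PRDM16, a determinant of brown fat, 8 among 39, 29 and 16, and ZNF423, a zinc finger factor of fat and brain development, 7 among 39, 31 and 17. In all of these both hairpin lists held more regions than shScramble, which the choice by gained regions favours.

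Genes of signalling, adhesion and transport were the other leading hosts. PLCH2, a phospholipase C of neurons (chromosome 1, 2415943 to 2505532), had 8 among 25 regions with shCHD4#1, 21 with shCHD4#2 and 5 with shScramble, although 4 of the 8 had a p of 0.949 with shCHD4#1, near the weak end of that list. WNT7B, a WNT ligand (chromosome 22, 45920366 to 45977162), had 7 among 13, 9 and 3. ABCC1, a drug efflux pump, had 7 among 23, 13 and 7. SORCS2, a sorting receptor of the sortilin family, had 7 among 33, 21 and 8, and TAFA5, a secreted chemokine-like protein gene, had 8 among 31, 20 and 12. In CDH23, the cadherin of inner ear hair bundles, 9 gained regions stood beside equal totals with shCHD4#2 and shScramble: 57, 35 and 35 regions. Gained regions that abut without a shared base were counted separately, such as those of CDH23 that meet at 71707941 and of KCNQ1 at 2578471. The other leading genes, KLHL29, ZBTB7C, PTPRN2, OPCML and MCF2L, had 7 to 9 gained regions each. The 20 leading genes held 169 gained regions, none of which reached an authors' p of 0.05 in both hairpin lists.

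**Figure D3:**
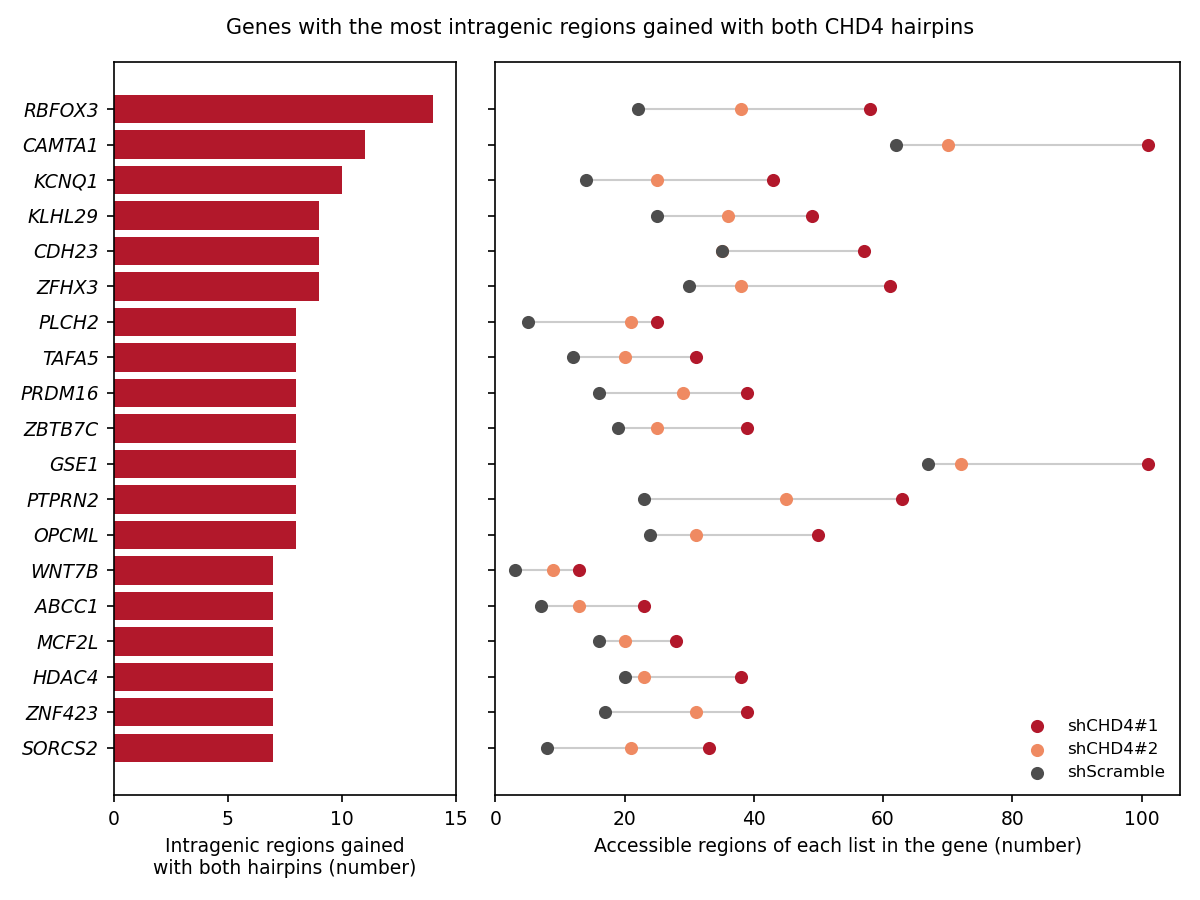
Drawn are 19 of the 20 protein-coding genes with the most intragenic regions gained with both hairpins: their number per gene (left, bars) and the number of accessible regions in the gene body in each list (right, points for shCHD4#1, shCHD4#2 and shScramble). RBFOX3 leads with 14, and shCHD4#1 has the most regions in each gene drawn, and in CDH23 shCHD4#2 and shScramble coincide at 35.

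Per length of gene, the densest gain was at INS-IGF2 (chromosome 11, 2129117 to 2161209), the readthrough of the insulin and insulin-like growth factor 2 genes, with 5 gained regions or 15.6 per 100 kb. It spans IGF2, and its regions were not assigned to either gene here. Of the 5, those at 2150631 to 2152590 and 2152591 to 2153610 abut and were counted separately. The latter lay 10 bp from a shScramble region. INS-IGF2 held 7 regions with shCHD4#1, 8 with shCHD4#2 and 2 with shScramble. WNT7B followed with 12.3 per 100 kb and DTX1, a regulator of Notch signalling, with 9.69 per 100 kb, which came from 4 gained regions among 10 with shCHD4#1, 8 with shCHD4#2 and 1 with shScramble. PRRX2, a homeobox factor of mesenchyme, had 5 among 13, 12 and 2, but 3 of its 5 had a p of 0.949 with shCHD4#1, near the weak end of that list. COL20A1, a collagen gene, had 4 among 8, 5 and 1. PLCH2, RAB3IL1, LOC124900586 and GRID2IP were also among the densest.

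Gained regions also gathered in stretches. The 100 kb stretches with the most lay in PLCH2 and PANK4 (chromosome 1, 2429383 to 2521014) with 9, among 32 regions with shCHD4#1, 25 with shCHD4#2 and 7 with shScramble, and in WNT7B and the neighbouring LOC105373071 with 8, among 21, 16 and 4. TP73, a relative of p53 that is active in neurons and ciliated cells, and its neighbour CCDC27 shared a stretch (chromosome 1, 3669547 to 3768084) with 7, among 22, 22 and 9. LOC124900586 and LMF1, a lipase maturation factor gene, shared a stretch with 7, among 15, 9 and 2. Such crowding was the exception: 19.2% (18.1 to 20.3) of gained intragenic regions had another within 10 kb, against 39.4% (38.6 to 40.2) of the more numerous regions of all lists and 22.2% (21.2 to 23.2) of lost regions.

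**Figure D4:**
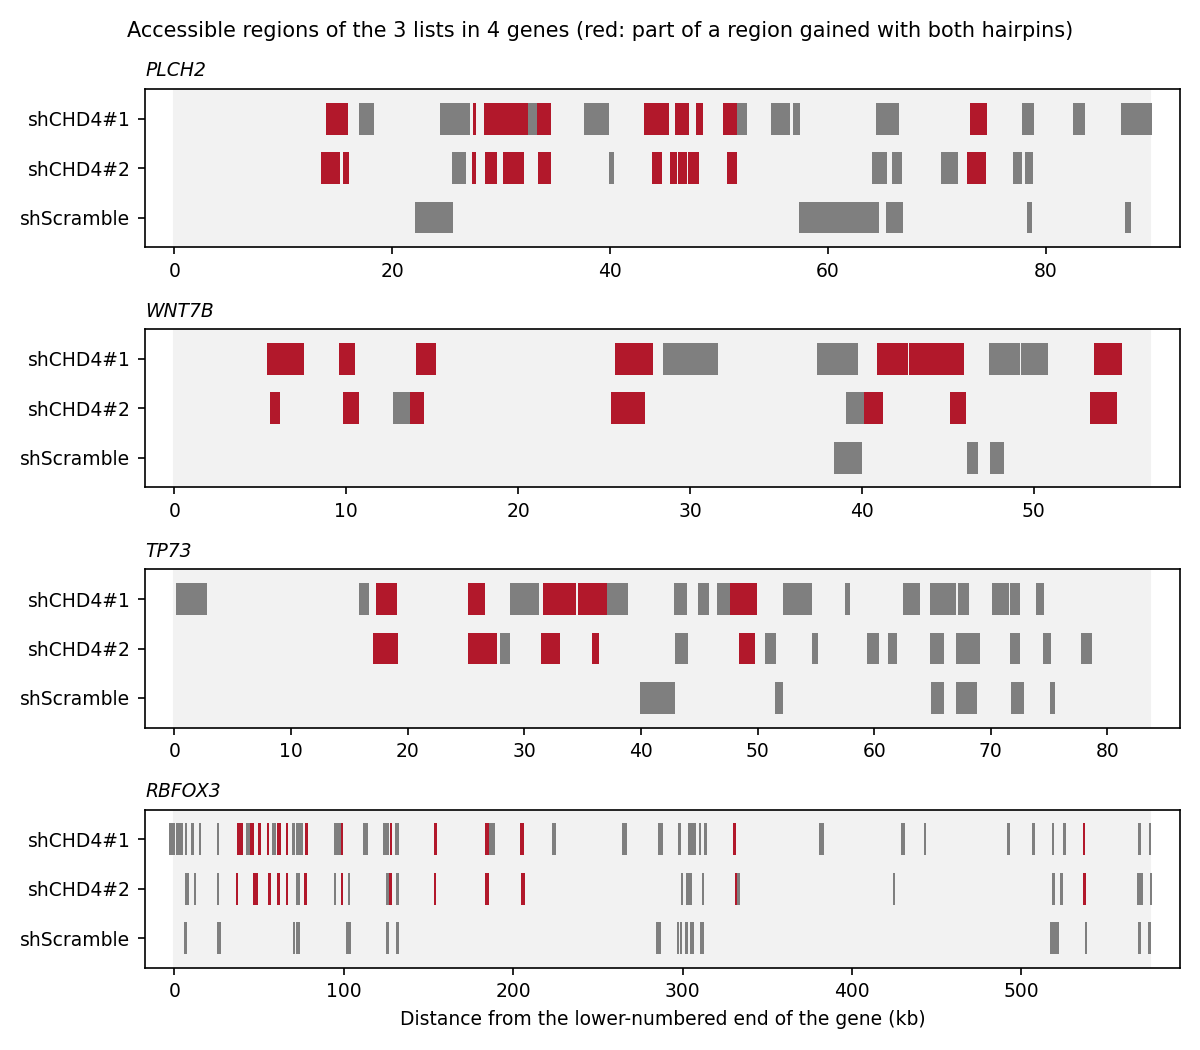
Accessible regions in the bodies of PLCH2, WNT7B, TP73 and RBFOX3, with distance from the lower-numbered end of the gene (kb) on the horizontal axis and a row each for shCHD4#1, shCHD4#2 and shScramble. Red boxes belong to regions gained with both hairpins, 8, 7, 5 and 14 in the 4 genes, and grey boxes to all other regions.

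At 147 of the 3339 genes no shScramble region was listed in the gene or within 5 kb of it, and 13 of these had at least 2 gained regions. CYP2C19, a drug-metabolising cytochrome P450 (chromosome 10, 94762681 to 94855547), had 3 gained regions and no other region in any list, and its gained regions were 132480 to 177260 bp from any shScramble region. It belongs to a family of near-identical neighbours, so reads there may have been placed in another copy. KDM5A, a histone demethylase (chromosome 12, 280057 to 389320), had 2 gained regions, the better of which stood at 11.5% with shCHD4#1 and 39.4% with shCHD4#2. NKD1, an inhibitor of WNT signalling, had 2 among 5 regions with shCHD4#1, 3 with shCHD4#2 and 0 with shScramble. The others named by the rule, with 2 each, were GBP5, CETP, CLEC19A, SLC1A6, PRIMA1, ST8SIA4 and PPP1R14C. In none of the 10 did shCHD4#1 or shCHD4#2 list more than 5 regions in the gene.

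Gained intragenic regions were read over 15 gene lists beside all genes of like length, since long genes have more of them. In 13 of the 15 lists more genes had a gained region than the share in genes of like length would give. That number was 7 when an authors' p of at most 0.05 was required, 12 with gene end windows of 2 kb and 13 under every other setting. At that p like length would give less than 1 gene for every list, so a list stood above if it held any gene at all. Among the best 20000 regions of each list, shScramble included, the 13 were not the same lists. Regions that shScramble listed lower counted as absent in that setting. Muscle and apoptosis genes fell to 0 there, where like length would give 2.36 and 1.52, while Hippo genes (3 against 2.30) and DNA damage genes (5 against 3.13) stood above. These are counts without a test, and the lists were chosen with earlier results known. Genes of like length include those without any listed intragenic region, and 10655 of the 19974 genes had at least 1. The longest of the 10 length classes spans 152 to 2474 kb, so like length does not account for length within it. Median lengths were 310 kb in the neuronal list and 180 kb in the axon guidance list. Calcium and potassium channel genes had the highest share of genes with a gained region. Relative to like length, the apoptosis, EWSR1::FLI1 and WNT lists described below stood higher. Of 44 channel genes, 29 had a gained region where like length would give 16.9, and the median number was 1 against 0 over all genes. KCNQ1, described above, led, followed by CACNA1C, the L-type calcium channel of heart and neurons, with 6 gained regions among 24 with shCHD4#1, 23 with shCHD4#2 and 13 with shScramble, and KCNT1, a sodium-activated potassium channel, with 6 among 14, 10 and 4. KCNQ3, a channel of the M-current, had 6 among 37, 30 and 22, and CACNA1H, a T-type calcium channel, had 3 among 14, 10 and 2.

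Genes of axon guidance and of neurons also had high shares. Of 42 axon guidance and adhesion genes 27 had a gained region, where like length would give 17.1. CDH4, a classical cadherin, had 7 among 52 with shCHD4#1, 27 with shCHD4#2 and 20 with shScramble. NTN1, the guidance ligand netrin, had 5 among 23, 14 and 7, and EPHB2, an ephrin receptor, had 5 among 22, 12 and 9. Of 45 neuronal and synaptic genes 26 had a gained region, where like length would give 17.5. Gained regions were nevertheless 8.64% of the intragenic regions of the neuronal list, below the 9.62% over all genes, and 11.7% of those of the axon guidance list. After RBFOX3 the most were in SHANK2, a scaffold of the postsynapse, with 7 among 44, 26 and 18. Not all host genes had more regions in total: CNTNAP2, an axonal adhesion gene, had 3 gained regions among 63 with shCHD4#1, 34 with shCHD4#2 and 53 with shScramble.

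**Figure D5:**
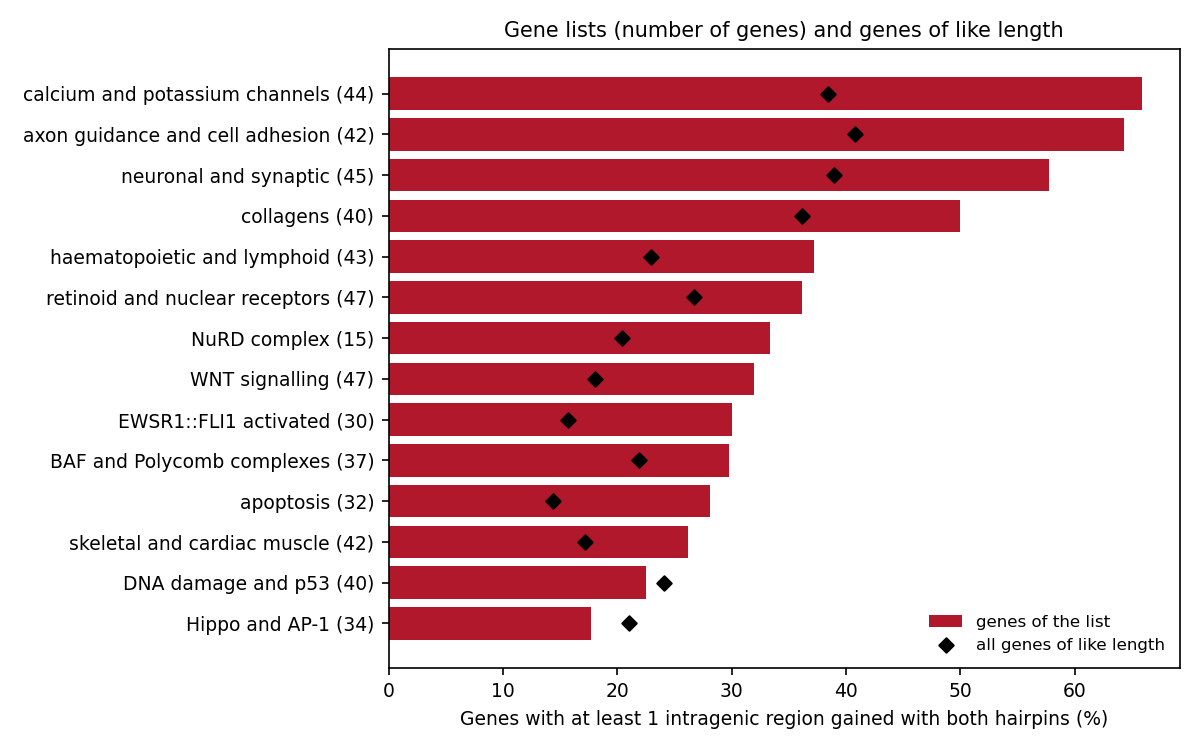
Share of genes with at least 1 intragenic region gained with both hairpins (%, horizontal axis) for 14 of the 15 gene lists, with the number of genes in brackets. Bars show the lists and diamonds the share in all genes of like length: the channel genes stand at 65.9% against 38.4%, and the DNA damage and Hippo lists stand below their diamonds.

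The pathways next to CHD4 gave smaller counts. Of 15 NuRD genes 5 had a gained region, where like length would give 3.06. GATAD2A, a scaffold subunit, had 2 among 11 regions with shCHD4#1, 9 with shCHD4#2 and 6 with shScramble, and CDK2AP1, a small subunit, had 1 among 9, 1 and 0. CHD5, the neuronal relative of CHD4, and MTA3 had 1 each. The gained regions in CHD4 and CDK2AP1 lay 1238 and 1199 bp from a gene end. With gene end windows of 2 kb, 3 NuRD genes had a gained region, against 2.88 by like length. Of 37 BAF and Polycomb genes 11 had a gained region, where like length would give 8.10: ARID1B, a DNA-binding BAF subunit, led with 3 among 35, 22 and 26. Gained regions were 9.04% of the intragenic regions of that list, below the 9.62% over all genes. With gene end windows of 2 kb, 7 BAF and Polycomb genes had a gained region, against 7.67 by like length. Of 30 genes activated by EWSR1::FLI1, 9 had a gained region, where like length would give 4.71. PRKCB, a protein kinase C gene, had 4 among 33, 25 and 26, BCL11B, a zinc finger factor, had 2 among 13, 7 and 4, and CAV1, which encodes caveolin, had 2 among 5, 8 and 3. Of 34 Hippo and AP-1 genes 6 had a gained region, where like length would give 7.14, with 4 in TEAD1, the DNA-binding partner of YAP.

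In WNT signalling 15 of 47 genes had a gained region, where like length would give 8.46. After WNT7B the ligand gene WNT9A had 2 among 8 regions with shCHD4#1, 4 with shCHD4#2 and 0 with shScramble, the receptor gene LRP6 had 2 among 6, 6 and 3, and the corepressor gene TLE3 had 2 among 11, 10 and 5. Of 47 nuclear receptor genes 17 had a gained region, where like length would give 12.6, with 4 in RXRA, the common partner of many receptors, among 31, 18 and 14. Of 43 blood cell genes 16 had a gained region, where like length would give 9.87. RUNX3 had 4 among 10, 9 and 3, LSP1, a leukocyte actin-binding protein gene, had 3 among 4, 4 and 1, and VAV1 had 1 among 8, 8 and 6. Of 40 collagen genes 20 had a gained region, where like length would give 14.5. Gained regions were nevertheless 9.33% of the intragenic regions of the collagen list, below the 9.62% over all genes.

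Muscle, apoptosis and DNA damage genes completed the lists. Of 42 muscle genes 11 had a gained region, where like length would give 7.20. DYSF, which repairs the muscle membrane, had 5 among 29 regions with shCHD4#1, 23 with shCHD4#2 and 18 with shScramble, and LDB3, of the Z-disc, had 2 among 7, 9 and 3. Of 32 apoptosis genes 9 had a gained region, where like length would give 4.6. BCL2L1, an inhibitor of apoptosis, had 2 among 12, 6 and 5, and BCL2L11, the activator BIM, had 1 among 4, 6 and 2. Of 40 DNA damage and p53 genes 9 had a gained region, where like length would give 9.64. Gained regions were 10.0% of the intragenic regions of that list, against 9.62% over all genes. TP73 held 5 gained regions, and RAD51B, a recombination gene, had 3 among 48, 22 and 30.

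The best-placed gained intragenic region, judged by the worse of its hairpin ranks, lay in VAV1, a signalling protein of the blood lineage (chromosome 19, 6826391 to 6830030). It was number 609 in the shCHD4#1 list and number 441 in the shCHD4#2 list, with an authors' q of 0.00906 and 0.00845. A shScramble region lay 130 bp away. The next was in PRRT1B, at number 1742 and number 1607. ULK1, the kinase that starts autophagy, had one of 3360 bp (chromosome 12, 131910331 to 131913690) at number 1433 and number 1768, 11410 bp from the nearest shScramble region. C3, the central complement component, had one at number 2042 and number 1962, 17040 bp away. SLC41A3, a magnesium transporter gene, had one 23460 bp away and PIEZO1, a mechanically gated channel gene, one 5420 bp away. MUC2, the main mucin of the gut, whose coding repeats make read placement uncertain, ATP1B2, SNTB1 and KSR2 were the others. Gained regions in VAV1 and SNTB1, 130 and 152 bp from a shScramble region, thus stood beside control accessibility, while those in ULK1, C3 and SLC41A3 stood more than 10 kb from it.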

How the data were processed

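ATAC-seq lists of SK-N-MC cells with shCHD4#1, shCHD4#2 and shScramble were used, 1 list per group. Tools of the authors, per the submitters' processing notes, were BWA, deepTools 3.2.1, SAMtools 1.9, FastQC 0.11.7 and Trimmomatic 0.36, and the build was GRCh38. The sources used here do not give the peak caller, a shift for the Tn5 cut or a use of the spike-in. Each deposited region has a score and a second score from the authors with no stated unit, and the authors' p-value, by which the lists are sorted, and q-value. These served only to rank or filter regions. Without read counts, depth and its precision are unknown; a deeper library would list more weak regions.

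Merging, gene classes, distances and Wilson intervals at 95% were computed in Python 3.11.15 with pandas 2.3.3, numpy 2.4.6 and SciPy 1.17.1, and tested on simulated regions, where 5000 of 5000 patterns, 5000 of 5000 gene classes and 5000 of 5000 distances were recovered. Genes were the 19974 protein-coding genes of RefSeq (GRCh38.p14), and the strand was known for 15812 of them. Genes of like length share 1 of 10 length classes. Named genes were CHD4, the 20 with the most gained intragenic regions, the 10 densest with at least 4, up to 10 with no shScramble region within 5 kb, up to 4 per gene list, and the genes of the 10 best-ranked and 5 farthest regions and of the 5 densest stretches of 100 kb. Those with gained start sites or microRNAs that lie outside this rule were named after their values were seen. Start windows and microRNAs came from RefSeq tables of the same build, with 34961 windows and 1558 hairpins on the chromosomes used. Other limits on p, rank, width, overlap, distance to shScramble and gene end windows were tried. The members and lists were chosen with earlier results of these data known. Exons, introns and the sequences of the regions themselves were not analysed here. Some genes that the rule names, and 1 gene list, are not reported here.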

Additional observations from a re-analysis of the deposited data

How the results depend on the processing

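With 1 list per group there was no test and no replicate to leave out. No paired analysis was possible because each group has a single list and the result comes from no test. The settings below were each changed alone.

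The number of gained intragenic regions, 5112, became 109 where each hairpin region had to reach an authors' p of 0.05 and 1254 among the best 20000 regions of each list; the number of genes with one, 3339, became 111 and 1089, and the number of list genes with one, 229, became 9 and 91. The intragenic share of regions gained with both, 39.0%, was 34.8% at that p, 34.3% among the best 20000, and 36.5% and 31.9% with gene end windows of 2 and 5 kb. The share of intragenic regions that were gained, 9.6%, was 0.326% at that p, 8.80% where the hairpin regions shared at least 50% of the shorter, 7.47% without a shScramble region within 1 kb, 8.87% with the lists cut to the shortest, 11.1% among the best 20000 and 9.30% with windows of 5 kb. In the setting by p, absence from shScramble was judged at any p, and merging only the regions that passed gave 109 where 104 of the original regions passed. Among the best 20000 and with the lists cut to the shortest, the shScramble list was cut as well. A region that shScramble listed lower then counted as absent, so the gained regions of these settings need not be among the 5112. Here a count moved when it changed by more than 1.5 times, and a share when it left its own Wilson interval, which is the tighter limit. Keeping negative and wide regions, or only regions up to 5 kb wide, moved none of these 5 numbers.

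Of 108 further counts, per gene and list, by the same limit of 1.5 times, 108 moved at that p and 101 among the best 20000, against 8 at 50% overlap, 19 without a shScramble region within 1 kb, 32 with equal lists, 8 and 17 with the wider windows and 0 in the other settings. Of the 20 leading genes, 14 had a gained region among the best 20000, with shScramble cut to its best 20000 as well.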
